A study of Homo sapiens with 65 samples.

Results

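The 47 genes described here encode the machinery that copies DNA, together with regulators that act in S phase, the part of the cell cycle in which the genome is duplicated. They were taken by name from the authors' gene count table and make up 47 of its 58735 genes. One member, FAM111B, brought the list together: it had been called at day 7.5 in both arms of the study. The day 7.5 contrasts are therefore given below as descriptions. Numbers of members past a test threshold there come from the values that chose the list, and no conclusion is drawn from them. The samples were left ventricular cardioids, heart-like aggregates grown from human WTC-11 induced pluripotent stem cells, labelled as cardiac progenitor cells. Cells were induced towards mesoderm, dissociated and reseeded as aggregates at day 1.5, and RNA was taken at days 1.5, 2.5, 4.5 and 7.5 from pools of 8 cardioids per library.

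The genotype arm compared wild-type cardioids (WT) with cardioids labelled HAS2-KO (KO), a knockout of HAS2, the main synthase of the extracellular sugar polymer hyaluronan in the embryonic heart. WT had 5, 6, 6 and 3 libraries at the 4 days, from 4 WT line names. KO had 6, 6, 6 and 3 libraries, from 4 clones (cl4, cl14, cl46 and cl51), of which cl4 and cl14 reached day 7.5. The enzyme arm used 3 lines labelled WT in genotype. They were left untreated or given hyaluronidase, an enzyme that cleaves hyaluronan. Its addition began at day 1.5 in the groups called HAse1.5 and a day later, at day 2.5, in those called HAse2.5, with 1 library per line in each group. Untreated and HAse1.5 libraries were taken at days 2.5, 4.5 and 7.5, and HAse2.5 libraries at days 4.5 and 7.5. Both arms together made 65 libraries in 16 groups.

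Before S phase, the origin recognition complex, CDC6 and CDT1 load the MCM2-7 helicase onto DNA. CDC45 and the GINS complex then turn it into an active helicase, primase and the polymerases build the new strands, and PCNA, a ring loaded by replication factor C, holds the polymerases in place. Many of these genes are known targets of the E2F transcription factors, and their transcripts are abundant in dividing stem cells and scarce in cells that have left the cycle, as cardiomyocytes do while the heart matures.

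The promoters of the members held E2F-type words in a larger share than promoters in general. RefSeq windows (GRCh38.p14, 250 bases before to 50 after the gene start) were present for 40 of the 47 members. One of the words TTTCCCGC, TTTGGCGC, TTTCGCGC and TTTGCCGC, on either strand, was present in 21 of the 40 windows (52.5%) and in 908 of all 27305 windows (3.33%). The word CCAAT, on either strand, was present in 24 of the 40 (60%) and in 35.7% of all windows. These matches describe letters in a window and show no binding. The following 30-base stretches carry E2F-type words and overlap no annotated exon. Each is read on the gene's own strand with the matched word in capitals. Stretches that carry the words but overlap an exon, such as those of UHRF1, CDT1, CDC6 and DTL, are not shown. The MCM6 stretches hold TTTGGCGC overlapped by the reverse complement of TTTCGCGC.
PCNA, chr20:5126663-5126692, minus strand, the match starting 59 bases before the gene start: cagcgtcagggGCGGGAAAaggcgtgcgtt
MCM6, chr2:135876513-135876542, minus strand, 90 bases before the start: ttggtcaggTTTGGCGCGAAAtctccagct
MCM6, chr2:135876575-135876604, minus strand, 152 bases before the start: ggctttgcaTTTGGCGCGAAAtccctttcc
MCM3, chr6:52284898-52284927, minus strand, 174 bases before the start: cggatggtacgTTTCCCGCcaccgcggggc
POLA1, chrX:24693770-24693799, plus strand, 137 bases before the start: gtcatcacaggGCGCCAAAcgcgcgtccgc

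Libraries held 831062 to 3574843 counted reads (median 1570954). Levels below are log2 CPM (counts scaled to a common library size) with a prior count of 2, on which 0 counts give 0.21. A 3′ tag library counts 1 end per transcript. Precision is limited by counting for the members with few reads. All 7 cardiac progenitor markers were detected from day 2.5, and 5 of them at day 1.5, when TBX5 was at 0. HAS2 itself was not lower in the libraries labelled KO (442 to 913 CPM at day 2.5, against 370 to 869 in WT), and a 3′ tag that lies outside the deleted part checks nothing. The 10 libraries with the lowest run of library numbers (run A: WT_R1, WT_TU_R1 and cl4_R1) stood apart within their groups, on an axis that held 42.81% of the within-group variance. At day 2.5, 26 of the 47 members were higher in both WT run A libraries than in every other WT library, and 10 were lower in both. The share of all genes that stood apart in this way is not given, so these counts describe the members only. Calls and counts of the members that run A changes are given with and without it.

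All 47 members had their highest group mean at day 1.5 or 2.5, before or just after aggregation. The mean level over the 47 was 6.04 ± 0.09 in WT at day 1.5 (SD, n = 5) and 5.96 ± 0.11 at day 2.5 (n = 6). It was 4.14 ± 0.07 at day 4.5 (n = 6) and 4.04 ± 0.21 at day 7.5 (n = 3). The members took 0.400%, 0.401%, 0.124% and 0.115% of all counts in WT at the 4 days. In bulk samples, fewer cells in S phase and less RNA per cell cannot be told apart. The lowest group mean lay in KO at day 7.5 for 23 members, in HAse1.5 at day 7.5 for 12, in HAse2.5 and in untreated cardioids at day 7.5 for 5 each, in HAse2.5 at day 4.5 for 1, and in WT at day 4.5 for RFC1.

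**Figure D1:**
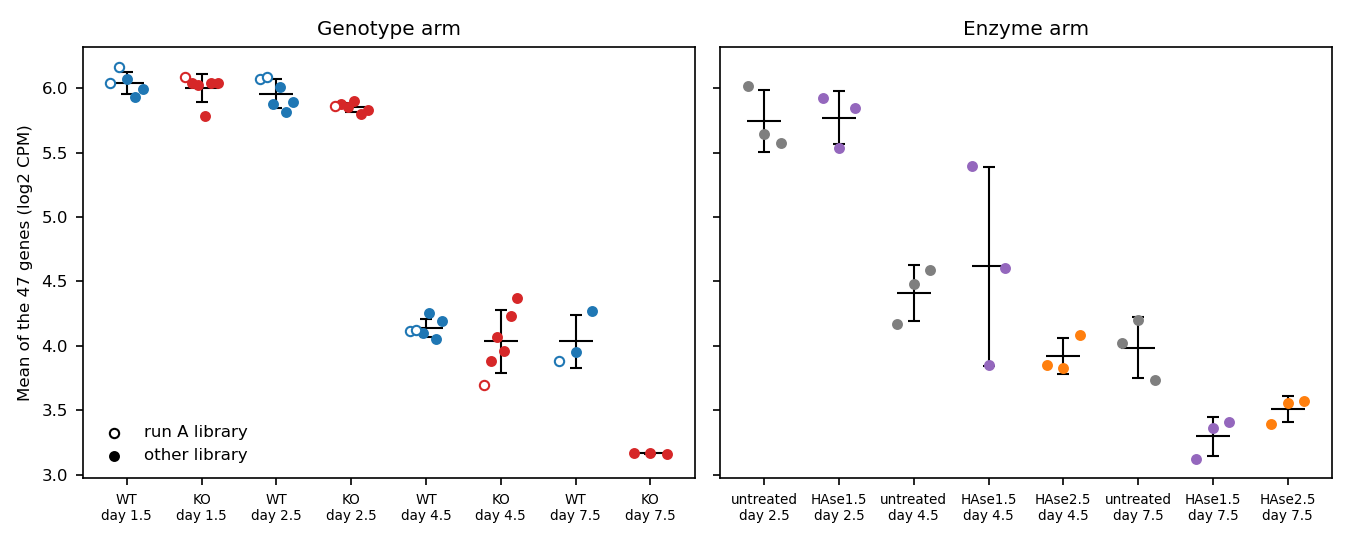
Mean log2 CPM of the 47 genes in each library (y axis) by day of collection (x axis), for the genotype arm and the enzyme arm; each point is 1 library and open points are run A. In the genotype arm levels near 6 at days 1.5 and 2.5 give way to levels near 4 at day 4.5, the HAse1.5 library of the TNNI1 line is at 5.40 at day 4.5, and the 3 KO libraries at day 7.5 lie together at 3.16 to 3.17, below the 3 WT libraries at 3.88 to 4.27.

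**Figure D2:**
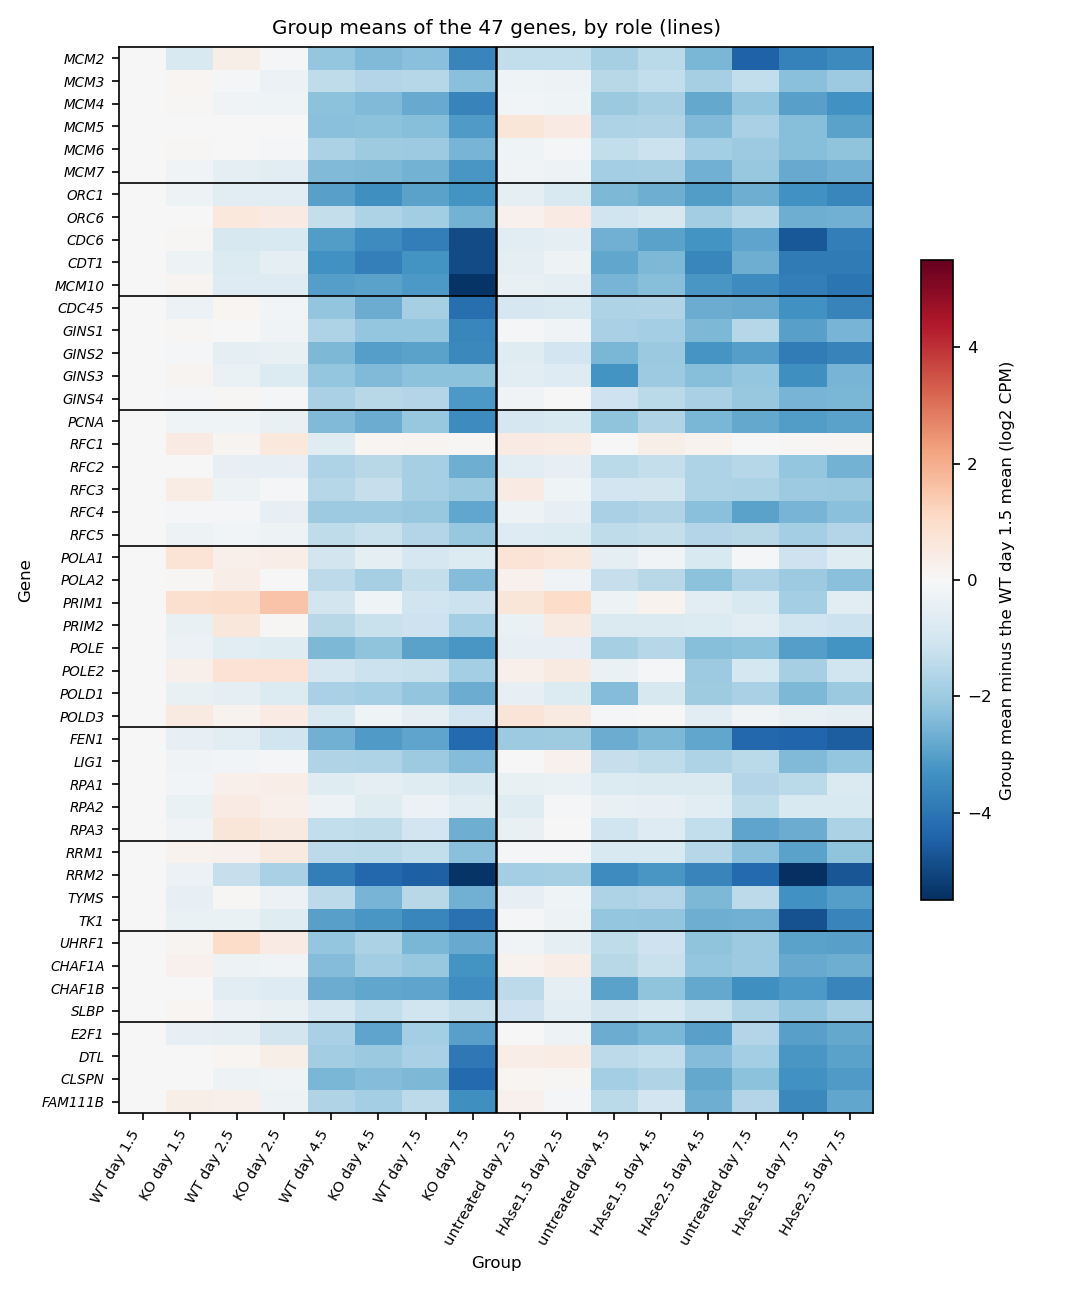
Group mean log2 CPM of each of the 47 genes (rows, parted by role) minus the mean of WT at day 1.5, in all 16 groups (columns); colour gives the difference on the log2 scale. Every group of days 4.5 and 7.5 is lower than the groups of days 1.5 and 2.5 for most genes.

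From day 1.5 to day 2.5, the first day as aggregates, 7 members were called in WT. Of the 47, 6 fell (15.1% of all 13797 genes tested fell) and 1 rose (15% rose) at an adjusted p under 0.05 (edgeR's quasi-likelihood test), with a median log2 change of -0.09. RRM2, the small subunit of ribonucleotide reductase, fell most: its levels were 8.58, 8.46, 7.39, 7.09 and 7.24 at day 1.5, and 5.96 to 7.29 at day 2.5 with a median of 6.26. The groups overlapped only between 7.09 and 7.29. The log2 fold change of RRM2 was -1.33 (SE 0.34, edgeR adjusted p = 0.00252). CDC6, the helicase loader, fell by 0.91 (SE 0.23, edgeR adjusted p = 0.0019). MCM10, which helps to activate the helicase, had levels of 6.73, 6.34, 7.36, 7.18 and 7.34 at day 1.5 and of 5.84 to 6.65 at day 2.5 (median 6.37). MCM10 fell by 0.75 (SE 0.25, edgeR adjusted p = 0.0194). MCM7, POLE and POLD1, a helicase subunit and the catalytic subunits of the leading and lagging strand polymerases, fell by 0.51, 0.59 and 0.60. ORC6, a subunit of the origin recognition complex, rose by 0.57 (SE 0.21, edgeR adjusted p = 0.0355). The ORC6 call was lost when either run A library of day 2.5 was left out, and the number of members called was 12 without run A, 4 without WT_R1 of day 1.5 and 4 without TNT2 of day 1.5. It was 14 with the line and R number as a block across days, and 11 by DESeq2.

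In KO 7 members were called over the same day. Of the 47, 6 fell (16.1% of all genes) and 1 rose (17.2%), with a median of -0.26. RRM2 fell by 1.65 (edgeR adjusted p = 0.000181), and CDC6, MCM10 and MCM3 fell by 0.93, 0.82 and 0.42. GINS3, a subunit of the GINS complex, fell by 1.04 (edgeR adjusted p = 0.0142), a call lost without cl4_R1 of day 1.5. FEN1, the flap endonuclease that trims Okazaki fragments, fell by 0.94 (edgeR adjusted p = 0.0314). Its call was lost without run A, where the change was -0.61, and FEN1 shares exon sequence with FADS2 on the same strand, so its counts are uncertain. RPA2, a subunit of the single-strand binding protein, rose by 0.66 (edgeR adjusted p = 0.0155). Without run A 16 members were called, and 14 with the line and R number as a block.

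Between day 2.5 and day 4.5 almost the whole set fell in WT. By edgeR's quasi-likelihood test 45 of the 47 fell and none rose, against 15.9% of all genes that fell, and the fold change was below 0 for all 47 with a median of -1.87. In 39 of the 47 every library of day 4.5 lay below every library of day 2.5. The share of all genes that did so is not given for the steps between days, so such counts describe the members only. All 6 MCM2-7 subunits fell, with a median of -1.94, and MCM3 and MCM4 fell by 1.29 and 2.02. All 5 licensing and firing genes fell (median -2.30), as did the 5 CDC45 and GINS genes (-1.84), the 8 polymerase and primase genes (-1.72), the 5 flap, ligation and single-strand binding genes (-1.48), the 4 genes of nucleotide supply (-2.08) and the 4 S-phase regulators (-1.97). The clamp and its loader fell in 5 of 6 (median -1.24), and the genes of chromatin at the fork and histone mRNA in 3 of 4 (-2.20).

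UHRF1, which maintains DNA methylation behind the fork (chr19:4903080-4962154, plus strand), fell most. Its WT levels were 3.98 to 5.65 at day 2.5 (median 4.50) and 0.83 to 1.88 at day 4.5 (median 1.64), where 1 to 6 reads were counted. The groups of 6 did not overlap, and the log2 fold change was -3.80 (SE 0.48, edgeR adjusted p = 4.05e-08). ORC1, the largest subunit of the origin recognition complex (chr1:52372829-52404459, minus strand), had levels of 4.01 to 4.59 at day 2.5 (median 4.27) and of 1.30 to 2.30 at day 4.5 (median 2.00). ORC1 fell by 2.69 (SE 0.33, edgeR adjusted p = 1.7e-08), again with no overlap. PCNA, CDC6, DTL, FAM111B and TK1 fell by 2.24, 2.11, 1.98, 1.96 and 2.64. DTL directs the destruction of CDT1 at PCNA, FAM111B is a protease, and TK1 salvages thymidine. PRIM1, the catalytic primase subunit, fell by 2.80 (SE 0.88, edgeR adjusted p = 0.0113). PRIM1 is uncertain, because it shares exon sequence with NACA on the same strand and its day 1.5 levels were 0.88 and 0.61 in the WT run A libraries against 5.17, 4.99 and 4.35 in the others. The members not called were SLBP, which binds histone mRNA (-0.55, edgeR adjusted p = 0.13), and RFC1, the large subunit of the clamp loader (-0.73, edgeR adjusted p = 0.0958). Primitive streak markers had dropped by day 2.5, with sums of 3130 to 4850 CPM at day 1.5 and 51.1 to 126 at day 2.5 in WT. The 9 cardiomyocyte markers summed to 20.7 to 95.4 CPM at day 1.5 and 23400 to 57800 CPM at day 4.5. Their part in the decline was not tested.

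Most of the set fell over this step in KO cardioids too. By edgeR's quasi-likelihood test 44 of the 47 fell (14.9% of all genes), and the median was -1.89. For 42 members the groups did not overlap, again without a share of all genes beside it. ORC1 had levels of 3.67 to 4.80 at day 2.5 (median 4.35) and of 0.74 to 2.57 at day 4.5 (median 1.34), and fell by 3.35 (SE 0.36, edgeR adjusted p = 6.94e-10). CDT1, the partner of CDC6 in helicase loading, had levels of 5.34 to 6.34 (median 6.14) and then of 1.92 to 3.75 (median 3.03), and fell by 3.30 (SE 0.36, edgeR adjusted p = 1.82e-09). CDC45 fell by 2.79 (SE 0.47, edgeR adjusted p = 9.3e-06). The 3 members not called were RFC1 (-0.51), POLA1 (-0.92, edgeR adjusted p = 0.0708) and POLD3 (-0.76), and without run A all 47 were called in KO and 46 in WT. The difference between the KO effect at day 4.5 and at day 2.5, tested as an interaction, was called for 0 members (0.609% of all genes) by edgeR, with 1 member at an unadjusted p under 0.05 and a median of -0.01.

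**Figure D3:**
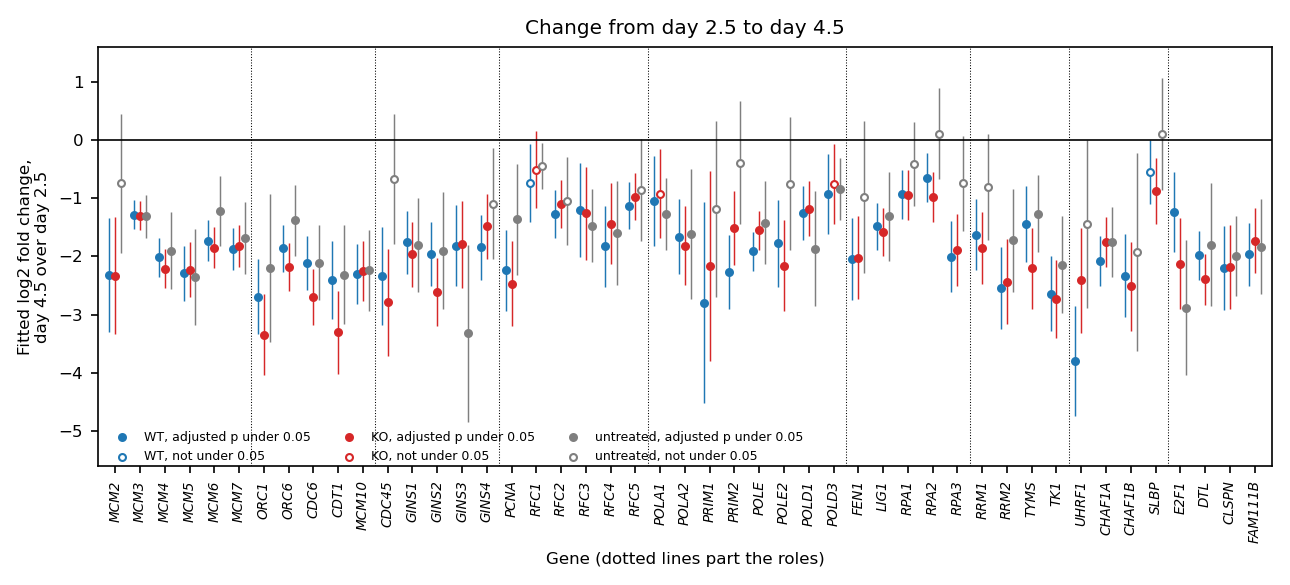
Fitted log2 fold change of day 4.5 over day 2.5 (y axis) for each of the 47 genes (x axis) in WT, KO and the untreated cardioids of the enzyme arm; bars are 95% intervals (normal approximation) and filled points have an adjusted p under 0.05. All WT points and most others lie below 0, and the medians are -1.87 in WT, -1.89 in KO and -1.42 in untreated cardioids, where RPA2 and SLBP lie above 0.

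After day 4.5 the genotypes are described side by side. The day 7.5 libraries took part in choosing the list, so edgeR's numbers past the threshold are descriptions here, and no conclusion is drawn from them. In WT the median change to day 7.5 was -0.19, with 35 of 47 below 0 and 0 members past the threshold (2.7% of all genes passed it in either direction, and 4 members had an unadjusted p under 0.05 in edgeR). The number was 1 with the line and R number as a block, without run A, and without WT_TU_R2 of day 7.5. In KO the median was -0.95, 44 of 47 were below 0, and 15 were past the threshold for a fall, against 3.02% of all genes. These 15 were MCM3, MCM4, MCM7, ORC6, CDC6, MCM10, GINS1, GINS4, RFC2, RFC5, POLE, CHAF1A, DTL, CLSPN and FAM111B. MCM10 had the lowest value of them (-2.94), then DTL (-2.16), CLSPN (-2.02), GINS4 (-1.91) and GINS1 (-1.78). The number was 8 without cl4_R2 of day 7.5 and 24 without run A. The KO groups also differed in clones. At day 4.5 cl46 and cl51 had means over the 47 of 4.23 and 4.37, above the other KO libraries (3.70 to 4.07). Both lack a day 7.5 library. The mean went from 3.88 to 3.17 in cl4_R2, from 4.07 to 3.17 in cl4_R3 and from 3.96 to 3.16 in cl14_R1. In WT, cl43_WT_UT and TNT2 (4.05 and 4.19 at day 4.5) also lack one. The part of clones and lines in the step was not tested. The difference between the genotypes in this step was not tested.

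At day 1.5 and day 2.5 no member differed between KO and WT by edgeR's quasi-likelihood test. At day 1.5, 0% of all genes were called, the members' median was -0.02 and their values ran from -0.76 (MCM2) to 0.69 (PRIM1), with 0 members at an unadjusted p under 0.05. At day 2.5, 0.993% of all genes were called, the members' median was -0.08, their values ran from -0.61 (FEN1) to 0.35 (RFC1), and again 0 had an unadjusted p under 0.05. Run A held 2 WT libraries at each of these days and cl4_R1 alone in KO. Within WT, its mean minus that of the other libraries was 1.897 for MCM2 and -4.085 for PRIM1 at day 1.5. For FEN1 and RFC1 at day 2.5 it was 1.117 and -1.388. The part of run A in these values was not tested.

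At day 4.5, 2 of the 47 were lower in KO and none was higher, where 2.6% of all genes were lower. E2F1, the transcription factor that drives many replication genes (chr20:33675683-33686404, minus strand), had WT levels of 2.62 to 5.01 (median 3.99) and KO levels of 2.49 to 3.26 (median 2.65). Its ranges overlapped between 2.62 and 3.26. The log2 fold change was -1.48 (SE 0.40, edgeR adjusted p = 0.0278). TYMS, thymidylate synthase (chr18:657604-673578, plus strand), had WT levels of 4.99 to 6.42 (median 5.67) and KO levels of 3.95 to 5.27 (median 4.55), and its log2 fold change was -1.23 (SE 0.35, edgeR adjusted p = 0.0397).

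Run A touched both genes. In run A, E2F1 was at 5.01 and 4.17 in WT and at 2.53 in KO. In the second run of library numbers (run B) it was at 3.96 and 4.03 in WT and 2.94 in KO, and in the rest (run C) at 2.62 and 3.57 in WT and at 2.49, 2.57, 2.73 and 3.26 in KO. TYMS was at 6.42 and 6.41 in WT against 4.41 in KO in run A, at 5.49 and 5.84 against 3.95 in run B, and at 4.99 and 5.09 against 4.70, 4.34, 5.27 and 4.89 in run C. KO libraries were below the WT libraries in runs A and B for both genes, and the genotypes overlapped in run C. Without run A, E2F1 was not called (-0.91, edgeR adjusted p = 0.144), while TYMS (-0.70, SE 0.20, edgeR adjusted p = 0.0302) and CDC6 (-0.71, SE 0.22, edgeR adjusted p = 0.0464) were. Over all alternatives the adjusted p ran from 0.00742 to 0.166 for E2F1 and from 0.0168 to 0.141 for TYMS. No member was called without WT_R1, WT_TU_R1, cl4_R3 or cl14_R1. One was called without cl4_R1, WT_TU_R2, cl4_R2, cl46_R1 or cl51_R1. Reads of TYMS cannot be parted from its opposite-strand neighbours TYMSOS and ENOSF1 if the counting ignored strand. The median of the 47 was -0.18, with 31 below 0, beside -0.03 over all genes, and UHRF1 had the highest value (0.80). Cardiomyocyte markers summed to 13900 to 40000 CPM in KO and 23400 to 57800 in WT, and their part in these differences was not tested.

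At day 7.5 KO cardioids held the lowest levels of the set in the genotype arm. The mean over the 47 was 3.17, 3.17 and 3.16 in the KO libraries cl4_R2, cl4_R3 and cl14_R1, and 3.88, 3.96 and 4.27 in the WT libraries WT_R1, WT_R2 and WT_TU_R2. These KO libraries were of runs B, C and C and these WT libraries of runs A, B and B. Genotype and run can therefore not be fully told apart at day 7.5. In run B, the only run with both genotypes, KO was at 3.17 and WT at 3.96 and 4.27. The members took 0.0736% of counts in KO and 0.115% in WT. The fold change was below 0 for 45 of 47 with a median of -0.87, beside 0.00 over all genes. Every KO library lay below every WT library for 22 of the 47, against 8.28% of all genes. The threshold was passed by 3, all lower (0.29% of all genes were lower). These values took part in the choice of the list, so the counts describe them and no conclusion is drawn from them.

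MCM10 (chr10:13161554-13211104, plus strand) was at 3.48, 3.80 and 4.22 in WT and at 1.31, 2.19 and 1.30 in KO. DTL (chr1:212035553-212107400, plus strand) was at 4.37, 4.12 and 4.01 in WT and at 1.65, 2.51 and 1.92 in KO. FAM111B (chr11:59107185-59127410, plus strand) was at 3.41, 2.91 and 4.22 in WT and at 1.31, 0.79 and 2.68 in KO. In all of these the genotypes did not overlap, and the fitted log2 fold changes were -2.66, -2.44 and -2.24. The MCM10 value lost its side of the threshold without cl4_R2 or without cl14_R1, and that of FAM111B without WT_TU_R2, cl4_R2 or cl4_R3. CDC45, a core part of the helicase, was counted 7, 11 and 8 times in WT and 0, 1 and 0 times in KO. CLSPN, the checkpoint adaptor claspin, was at 4.51, 5.38 and 5.46 in WT and at 2.96, 3.65 and 3.37 in KO. MCM3 showed a smaller step, from 6.52, 6.42 and 6.56 in WT to 5.63, 5.85 and 5.83 in KO.

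The day 7.5 medians by role describe the contrast that chose the list, and their order supports no ranking of the roles. The median was -2.09 for the 4 S-phase regulators, which include FAM111B, the gene called in this contrast beforehand. It was -1.78 for CDC45 and GINS, -1.42 for licensing and firing, -1.06 for nucleotide supply and -0.81 for MCM2-7. It was -0.69 for the polymerases and primase, -0.56 for the clamp and loader, -0.50 for chromatin at the fork and histone mRNA, and -0.36 for flap, ligation and single-strand binding. The highest values were those of POLA1 (0.13), TK1 (-0.02) and UHRF1. TK1 was counted 8, 3 and 10 times in WT and 4, 17 and 0 times in KO. UHRF1 was counted 1, 1 and 3 times in WT and 0, 0 and 5 times in KO, too near 0 for a fold. The sign of all 3 turned when single libraries were left out. The number past the threshold was 12 without run A, which takes away WT_R1, 9 with the run as a block, and 1 without cl4_R2. Cardiomyocyte markers summed to 53500 to 61300 CPM in KO and 54000 to 65000 CPM in WT, ranges that overlap. Endoderm and liver-type markers summed to 149 to 374 CPM in KO and 47.9 to 115 CPM in WT, and their part in the differences was not tested.

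**Figure D4:**
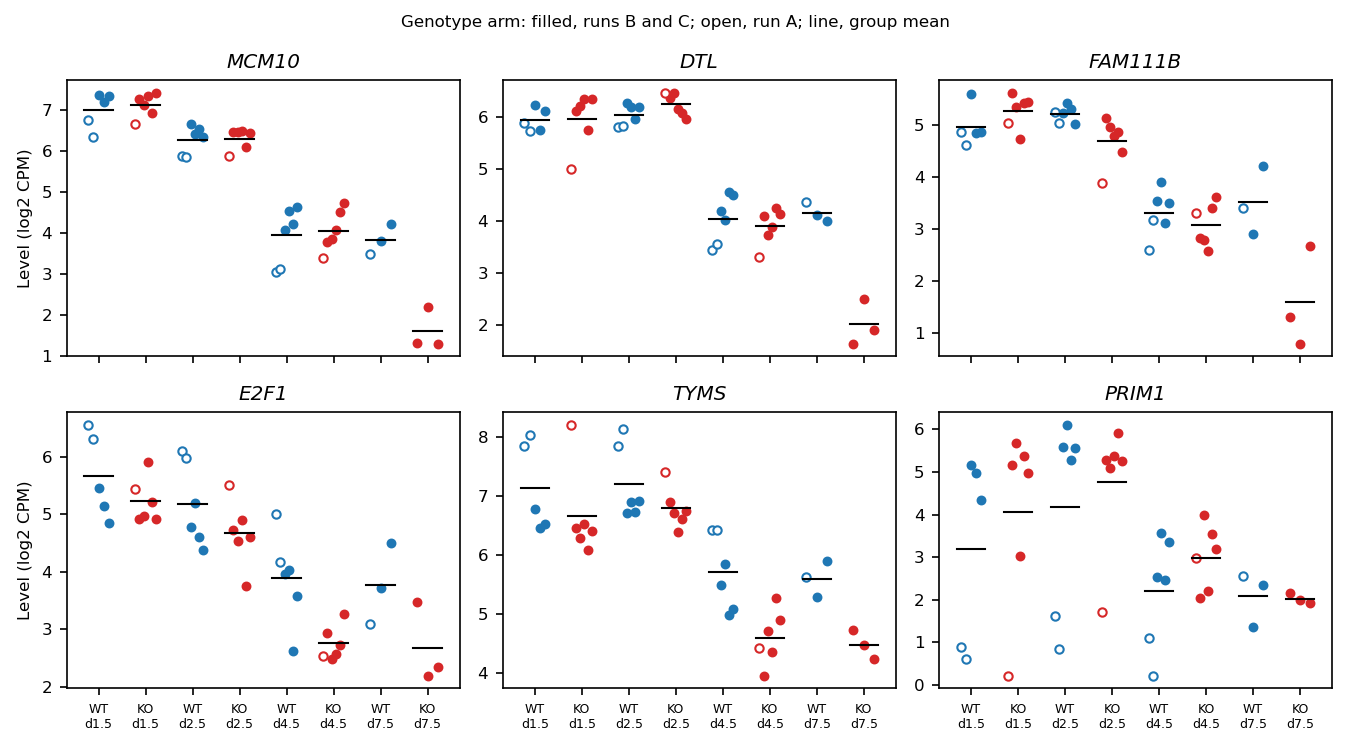
Log2 CPM of MCM10, DTL, FAM111B, E2F1, TYMS and PRIM1 in each library of the genotype arm (y axis) by day (x axis); open points are run A and lines mark group means. MCM10, DTL and FAM111B part by genotype at day 7.5, and PRIM1 is low in run A at days 1.5 and 2.5.

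Untreated cardioids of the enzyme arm repeated the decline between day 2.5 and day 4.5 in separate libraries. Of the 47, 30 fell (11% of all 12748 genes tested fell) and none rose, with a median of -1.42 and 45 values below 0. For 38 members the groups did not overlap, a count that has no share of all genes beside it. GINS3 fell by 3.32 (SE 0.78, edgeR adjusted p = 0.00295). It was counted 41, 11 and 32 times at day 2.5 and 2, 1 and 4 times at day 4.5, so the size of its fall is uncertain. E2F1 fell by 2.88 (SE 0.59, edgeR adjusted p = 0.00103), and MCM5, a helicase subunit, fell by 2.35 (SE 0.42, edgeR adjusted p = 0.000352). From day 4.5 to day 7.5, a step that shares the day 7.5 libraries and is given as a description, the untreated median was -0.30. The threshold was passed by 0 members, against 6.37% of all genes in either direction, and 7 had an unadjusted p under 0.05 in edgeR. With the line as a block 1 member passed it, and without the untreated WT line of day 7.5, 3 did.

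One day of hyaluronidase left the set without a detected change. HAse1.5 against untreated cardioids at day 2.5 called 0 members by edgeR (1.14% of all genes), with a median of 0.02 and 1 member at an unadjusted p under 0.05. At day 4.5 HAse1.5 again called 0 members (3.48% of all genes), with a median of 0.33, 4 values below 0 and 2 at an unadjusted p under 0.05. Without the untreated WT line of day 4.5 it called 1. The change of the HAse1.5 effect from day 2.5 to day 4.5, tested as an interaction, called 0 members in edgeR (0.706% of all genes), with a median of 0.36 and 1 at an unadjusted p under 0.05.

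The 3 lines differed at day 4.5 under HAse1.5. The mean over the 47 was 5.40 in the TNNI1 line, 3.86 in the WT line and 4.60 in the TNNT2 line. Against the same line untreated, these were differences of 1.23, -0.63 and 0.02, and 47, 7 and 24 of the members were higher with the enzyme. In the TNNI1 line, the mean had dropped by 1.85 between days 2.5 and 4.5 without the enzyme and by 0.52 with it. It then dropped by 2.28 with the enzyme between days 4.5 and 7.5. Cardiomyocyte markers summed to 4339, 16280 and 7386 CPM in the HAse1.5 libraries of the TNNI1, WT and TNNT2 lines at day 4.5. The untreated libraries held 44110, 27470 and 21690 CPM. Their part in the levels was not tested. Without the TNNI1 library, the median of HAse1.5 over untreated was -0.11 with 15 values above 0.

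With the enzyme from day 2.5, no member was called against untreated at day 4.5. HAse2.5 called 0 members by edgeR (0.22% of all genes). Of the 47 values, 42 were below 0, the median was -0.56, and 7 had an unadjusted p under 0.05. The 5 values above 0 were those of GINS3 (1.65), CHAF1B (0.34), POLD1 (0.23), RFC1 (0.15) and E2F1 (0.05). GINS3 was counted 2, 5 and 18 times with HAse2.5 and 2, 1 and 4 times without, too few for a firm fold. POLE2, a subunit of the leading strand polymerase, and FAM111B had values of -2.14 and -1.37. POLE2 was counted 1, 4 and 1 times with HAse2.5 and 6, 9 and 11 times without. FAM111B was at 1.94, 2.25 and 2.69 with HAse2.5 and at 3.55, 3.12 and 3.75 without. For 13 of the 47 the groups did not overlap, HAse2.5 being lower, against 8.57% of all genes. The line means differed by -0.32, -0.66 and -0.50 for TNNI1, WT and TNNT2. Marker sums moved as well. All 9 cardiomyocyte markers were detected, and they summed to 29140, 23410 and 15380 CPM in the HAse2.5 libraries of these lines, each below the same line untreated. The 6 endothelial markers summed to 207, 203 and 222 CPM, above the untreated 128, 162 and 146. Endoderm and liver-type markers summed to 39.7, 15.1 and 8.25 CPM, against 106, 29.4 and 37.6 untreated. Their part in the values was not tested.

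Between the start days, compared at day 4.5, all 47 values were higher in HAse1.5 than in HAse2.5, with a median of 0.89, and 24 had an unadjusted p under 0.05. By edgeR 0 members were called (0.361% of all genes), and by DESeq2 4 were: ORC6, POLE2, CLSPN and FAM111B. The highest values were 2.47 for POLE2, 2.15 for UHRF1 and 2.06 for FAM111B (SE 0.47, edgeR adjusted p = 0.0513). In the TNNI1, WT and TNNT2 lines POLE2 was counted 14, 10 and 15 times in HAse1.5 and 1, 4 and 1 times in HAse2.5. UHRF1 was counted 29, 1 and 8 times in HAse1.5 and 3, 3 and 1 times in HAse2.5. Its WT line went the other way, and such counts are too near 0 for a firm fold. FAM111B was at 4.67, 2.87 and 4.26 in HAse1.5, each above the same line in HAse2.5. With the line as a block FAM111B was called (2.00, SE 0.46, edgeR adjusted p = 0.0402). Without the HAse1.5 library of the WT line 9 members were called, and without that of the TNNI1 line the median was 0.36, with 38 values above 0. Of the cardiomyocyte sums given above, that of HAse1.5 was the lower in each line, with NPPA at 0 in all HAse1.5 libraries. Endothelial markers summed to 172, 178 and 161 CPM in HAse1.5, also below HAse2.5. Their part in the difference was not tested.

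**Figure D5:**
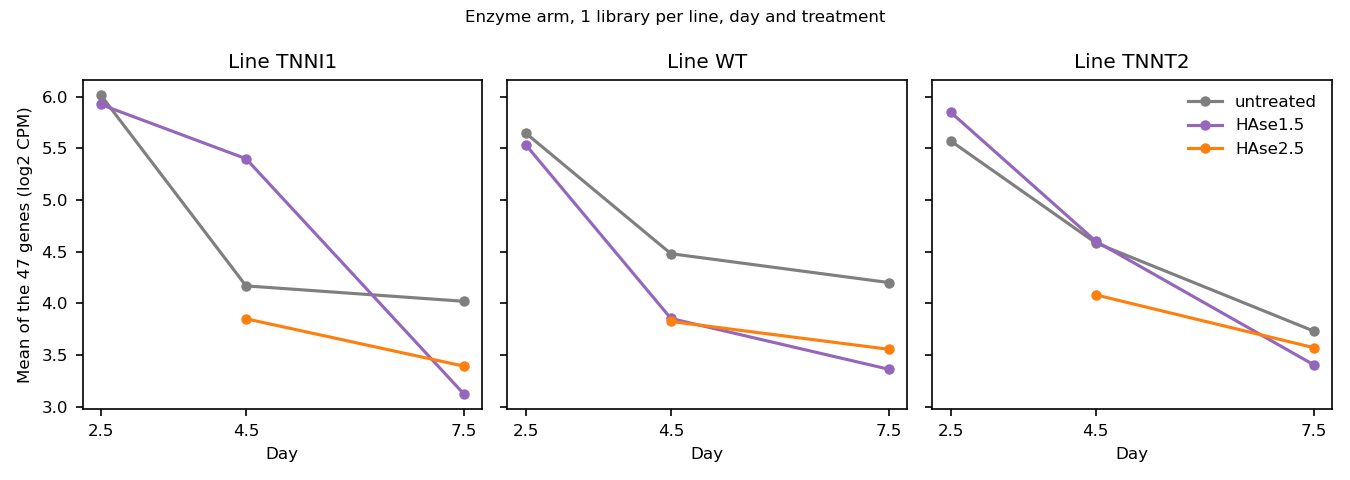
Mean log2 CPM of the 47 genes (y axis) by day (x axis) in the untreated, HAse1.5 and HAse2.5 libraries of each of the 3 lines; each point is 1 library. The TNNI1 line with HAse1.5 is at 5.40 at day 4.5, and at day 7.5 the untreated library is above both enzyme libraries in all 3 lines.

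At day 7.5 both enzyme groups lay below untreated cardioids, in libraries that share the same 3 untreated controls. The mean over the 47 was 3.99 ± 0.24 in untreated, 3.30 ± 0.15 in HAse1.5 and 3.51 ± 0.10 in HAse2.5 cardioids (SD, n = 3 each). By line, HAse1.5 differed from untreated by -0.90, -0.84 and -0.33 for TNNI1, WT and TNNT2, and HAse2.5 by -0.63, -0.65 and -0.16. HAse1.5 had a median of -0.73 with 42 values below 0, and 16 members without overlap on the lower side (8.9% of all genes). HAse2.5 had a median of -0.64 with 40 below 0, and 17 members without overlap (8.5% of all genes). Past the threshold for a lower level were 5 members in HAse1.5 (1.92% of all genes), namely TK1, FAM111B, CDC6, TYMS and MCM3, and 1 in HAse2.5 (0.314%), TYMS. These contrasts are descriptions, since FAM111B was chosen on them.

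TYMS was at 5.81, 5.60 and 5.71 in the untreated TNNI1, WT and TNNT2 lines at day 7.5, at 3.25, 4.32 and 3.85 with HAse1.5, and at 3.78, 4.11 and 4.46 with HAse2.5. All enzyme libraries were below all untreated ones. TK1 was at 3.33, 3.24 and 3.39 untreated, at 0.94, 1.32 and 1.31 with HAse1.5 and at 2.76, 2.66 and 1.61 with HAse2.5. FAM111B was at 3.76, 3.42 and 2.88 untreated, at 1.78, 0.87 and 1.66 with HAse1.5 and at 2.60, 2.50 and 1.28 with HAse2.5. The same separation held for both genes. CDC6 was at 4.49, 4.56 and 4.06 untreated and at 2.31, 2.55 and 2.96 with HAse1.5. The fitted HAse1.5 values were -2.85 for TK1, -2.47 for FAM111B, -1.95 for CDC6, -1.91 for TYMS and -0.96 for MCM3. UHRF1 was counted 2, 2 and 4 times untreated, 1, 1 and 0 times with HAse1.5, and 1, 0 and 1 times with HAse2.5, too near 0 for a fold. The highest values were 0.48 (RFC4), 0.42 (MCM2) and 0.42 (RPA2) with HAse1.5, and 0.89 (RPA3), 0.86 (MCM2) and 0.71 (RPA1) with HAse2.5. MCM2 and RPA3 had few untreated reads. MCM2 was counted 2, 18 and 3 times and RPA3 7, 22 and 2 times in the untreated TNNI1, WT and TNNT2 lines. Without the untreated WT line MCM2 was at 1.81 with HAse1.5 and 2.24 with HAse2.5, RPA3 at 1.86 with HAse2.5, and RPA2 at 1.04 with HAse1.5. RFC4 was at -0.27 without the HAse1.5 library of the WT line. The untreated WT and TNNT2 libraries of day 7.5 lay at 31.87 and -29.53 on the second axis of within-group variance, which held 12.32% of it. The untreated TNNI1 library lay at -2.35. With HAse1.5 the TNNI1, WT and TNNT2 lines lay at 18.51, 16.66 and -35.16, and with HAse2.5 at -10.25, 10.69 and -0.44.

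Single libraries changed these numbers, which describe the libraries that chose the list. The HAse1.5 number was 2 without its own TNNI1 library, and 3 without its own WT line library or the untreated TNNI1 library. The HAse2.5 number was 0 without the untreated TNNI1 or TNNT2 library, and without any 1 of the 3 HAse2.5 libraries. Cardiomyocyte markers summed to 60800 to 74900 CPM in untreated, 27600 to 31000 CPM in HAse1.5 and 35500 to 61700 CPM in HAse2.5 cardioids at day 7.5. Endoderm and liver-type markers summed to 62.9 to 360, 1.34 to 11.3 and 1.4 to 5.07 CPM. Their part in the differences was not tested.

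FAM111B went through the genotype arm with group means of 4.97, 5.22, 3.30 and 3.52 in WT and of 5.28, 4.70, 3.08 and 1.59 in KO. At day 1.5 the WT_R2 library was at 5.60 and the other WT libraries at 4.63 to 4.88. At days 1.5, 2.5 and 4.5 FAM111B was not called between KO and WT.

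The other genes of replication and of the G1/S transition, 42 of 44 with enough reads, also fell in part between days 2.5 and 4.5. In WT 25 of the 42 fell (15.9% of all genes fell), with a median of -1.13. HELLS, TICRR and PCLAF fell by 2.58, 2.43 and 2.34. HELLS remodels chromatin, TICRR starts replication forks and PCLAF binds PCNA. In KO 28 of the 42 fell (14.9% of all genes fell), with a median of -1.39, and 2 rose, E2F3 by 0.65 and ORC4 by 0.68. The share of all genes that rose is not given for this step. In untreated cardioids 20 fell (11% of all genes fell). All 24 mitosis genes fell over this step in WT (median -1.49) and in KO (median -1.65), and 17 fell in untreated cardioids. The same shares of all genes apply to these counts. The difference between these lists and the members was not tested.

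Between KO and WT at day 4.5, TIPIN, a fork protection factor, was lower (-0.97, edgeR adjusted p = 0.0461). The mitotic kinase CDK1 was lower too (-0.56, edgeR adjusted p = 0.0467), where 2.6% of all genes were lower. E2F3 was higher (0.65, edgeR adjusted p = 0.046). All of these lay just under the threshold. Values without run A are not given for them, so whether run A changes these calls is not known here. At day 7.5, in the same libraries as the list's choice, the mitosis genes had a median of -1.65 in KO over WT. All 24 genes were below 0 and 9 passed the threshold (0.29% of all genes were lower). Their mean level was 5.02 ± 0.22 in WT and 3.38 ± 0.17 in KO (SD, n = 3 each). In the other replication list PCLAF alone passed (-2.97). From day 4.5 to day 7.5, 23 of the 24 mitosis genes passed the threshold for a fall in KO (median -2.42), against 3.02% of all genes. CDC25C and CCNB2 had values of -4.51 and -3.35. In WT 5 passed (median -0.74), where 2.7% of all genes passed in either direction. With HAse1.5 at day 7.5, where 1.92% of all genes were lower, 7 mitosis genes passed (median -1.29). E2F8 (-1.98) and DBF4 (-0.90) from the other list did so too. With HAse2.5, where 0.314% of all genes were lower, none of the mitosis genes passed (median -1.18) and E2F8 did (-2.27). All counts that use day 7.5 libraries are descriptions, and no conclusion is drawn from them. Values without run A or without single libraries are not given for these lists.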

How the data were processed

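Gene expression was measured in 65 libraries, made with a 3′ tag kit (QuantSeq FWD) and sequenced single-end, per the labels' protocols. The deposited table holds whole-number read counts per gene, made by the authors with featureCounts (Subread 1.6.2) on GRCh38/hg38, per the submitters' processing notes. The aligner and the strand setting are not given in the sources used here. All 58735 identifiers are in GENCODE 29, which gave the gene positions. The table also holds 4 columns of no listed sample, which were not used. Groups came from the sample titles and the genotype labels.

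Each arm was fitted separately with edgeR 4.0.16 (R 4.3.3): genes passing filterByExpr (minimum count 10; 13797 genes in the genotype arm, 12748 in the enzyme arm), TMM scaling, 1 mean per group, robust quasi-likelihood tests, and Benjamini-Hochberg adjustment over all genes tested at 0.05. Fold changes are log2 with their standard errors. Levels are log2 CPM, TMM-scaled over all 65 libraries with a prior count of 2. The fits were tested on simulated counts. The labels call replicates biological, but several libraries come from 1 line or clone, and p-values measure the spread between these libraries.

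Alternatives were RLE size factors, no filter, DESeq2 1.42.0, only the libraries compared, each library left out in turn, a replicate block, a prior count of 0.5 and, added after seeing the data, leaving out run A. In the enzyme arm the replicate numbers pair libraries of the same line: 15 of 21 pairs of groups had deviations correlated above 0.1 (lowest -0.10, highest 0.46). In the genotype arm the block was the line and R number across days for steps, and the run of library numbers for KO against WT. For the members, a blocked value stands beside a result only where it changes the call or moves the count by over 1.5 times. The members and lists were chosen with earlier results of these data known. The text names the 3 largest falls and rises of a comparison past the threshold, the 3 lowest and 3 highest at day 7.5, FAM111B, the member with the highest mean level in each role group, and members that illustrate a role. Promoter sequences are RefSeq's; 7 members had no window and are named only: MCM4, MCM5, GINS4, POLD3, RPA2, RPA3 and FAM111B. Members that share exon sequence with another gene on the same strand are PRIM1, POLA2, POLD1, POLD3, FEN1, RRM2 and CHAF1B, and their counts are uncertain.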

Additional observations from a re-analysis of the deposited data

Results flagged for a closer look

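Within groups of 4 to 6 libraries, 180 sets of member levels were checked for a library far from the others, and 15 had one. Chance gives about 1 in 20 for independent sets. These sets share their libraries, so the 15 cannot be set against that rate. Of the 15, 11 were the run A library cl4_R1 of KO. At day 1.5 it was at 8.21 for TYMS (the others at 6.09 to 6.52), at 7.79 for ORC6 (6.21 to 6.73), at 6.96 for RFC4 (5.39 to 5.91) and at 5.47 for CLSPN (7.79 to 8.22). At day 2.5 it was at 7.85 for MCM2 (6.30 to 6.78), at 7.67 for ORC6 (6.91 to 7.07), at 6.64 for CLSPN (7.32 to 7.70), at 5.57 for POLA1 (6.57 to 7.02), at 7.45 for RFC1 (7.92 to 8.18) and at 1.71 for PRIM1 (5.09 to 5.91). At day 4.5 it was at 3.15 for CDC6 (3.82 to 3.96).

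In KO at day 1.5, cl14_R1 was at 5.23 for FEN1 (7.59 to 8.68) and at 5.78 for the mean of the 47 (6.02 to 6.09). In WT, WT_R2 at day 1.5 was at 5.60 for FAM111B (4.63 to 4.88), and cl43_WT_UT at day 4.5 was at 3.30 for GINS1 (4.02 to 4.37).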

How the results depend on the processing

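Of 579 alternative values for the named genes, 429 were of values past the threshold: none changed sign, and 57 lost the threshold. Of the 150 of values not past it, 14 changed sign and 9 moved by over 1 standard error. The sign changes were of POLA1 (4), TK1 (5) and UHRF1 (4) in KO against WT at day 7.5 and of RFC4 (1) with HAse1.5 at day 7.5. Counts of members called that changed by over 1.5 times were as follows. KO against WT at day 4.5 (2) gave 1 with no filter and 0 with only the libraries compared. KO against WT at day 7.5 (3) gave 9 with only the libraries compared, 9 with a replicate block for run A, B or C, and 12 without run A. The WT step from day 1.5 to 2.5 (7) gave 4 with no filter, 11 by DESeq2, 14 with a replicate block for line and R number, and 12 without run A. The same KO step (7) gave 4 with no filter, 14 with the replicate block and 16 without run A. The WT step from day 4.5 to 7.5 (0) gave 1 with the replicate block and 1 without run A, and the KO step (15) gave 24 without run A. HAse1.5 against HAse2.5 at day 4.5 (0) gave 8 with no filter, 4 by DESeq2 and 1 with the replicate block for the line. HAse1.5 at day 7.5 (5) gave 9 with no filter, 8 by DESeq2 and 1 with only the libraries compared. HAse2.5 at day 7.5 (1) gave 4 with no filter and 0 with only the libraries compared. The untreated step from day 4.5 to 7.5 (0) gave 1 with no filter, 2 by DESeq2, 1 with only the libraries compared and 1 with the replicate block. The blocks changed no other count by over 1.5 times. The causes were not tested.

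Leaving out 1 library gave 0 to 2 members for KO against WT at day 4.5, 1 to 4 at day 7.5, and 0 to 0 at days 1.5 and 2.5. It gave 4 to 7, 42 to 46 and 0 to 1 for the WT steps, and 6 to 9, 42 to 46 and 8 to 17 for the KO steps. In the enzyme arm it gave 0 to 1 for HAse1.5 at day 4.5, 0 to 9 for HAse1.5 against HAse2.5, 2 to 6 and 0 to 1 for HAse1.5 and HAse2.5 at day 7.5, 22 to 29 for the untreated step from day 2.5 to 4.5, and 0 to 3 for the step to day 7.5. The WT count moved past 1.5 times for the step to day 7.5 without WT_TU_R2. In the genotype arm, 9 of 32 same-numbered pairs of WT and KO libraries correlated above 0.1 (lowest -0.42, highest 0.79). All 9 were pairs of 1 run: 6 of 6 in run A (0.25 to 0.79) and 3 of 7 in run B. Of the 19 pairs from different runs 0 did, so there the number followed the run and not the replicate. With a prior count of 0.5 the mean level of the 47 spanned 3.14 between its highest and lowest groups, in place of 2.87. Members with few reads at day 7.5, such as UHRF1, TK1 and CDC45, limit what the depth can resolve, and day 7.5 has 3 libraries per group.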
